A study of Mus musculus with 24 samples.

Results

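The genes described here are 8 components and receptors of the complement system, measured in mouse bone marrow-derived dendritic cells. They were taken as a named list (C1qa, C1qb, C1qc, C3, Cfb, Cfp, C3ar1 and C5ar1) from the 38887 genes of the deposited count table, and all 8 passed the filter on low counts. The study sequenced mRNA from cells labelled IRE1 KO or IRE1 WT, exposed to zymosan or to lipopolysaccharide (LPS) or left untreated. IRE1 is the endoplasmic reticulum stress sensor encoded by Ern1, zymosan is a yeast cell wall preparation, and LPS is a bacterial cell wall component sensed by Toll-like receptor 4. The 6 groups were KO zymosan, WT zymosan, KO LPS, WT LPS, KO untreated and WT untreated, with 4 replicates each and 24 libraries in total. The labels give no Cre driver, no allele, no age of the animals, no dose and no duration of exposure. Nor do they say whether replicates were separate mice or separate cultures, so p-values measure only the spread between these samples, which may be technical.

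Complement is a cascade of plasma proteins that tags and lyses microbes and recruits phagocytes. The classical pathway starts when C1q, a protein assembled from A, B and C chains (C1qa, C1qb and C1qc), binds antibody or a target surface. All pathways converge on cleavage of C3, factor B (Cfb) supplies the protease of the alternative pathway, and properdin (Cfp) stabilises the convertase that this protease forms. The fragments C3a and C5a signal through the G protein-coupled receptors C3ar1 and C5ar1. Plasma complement comes mainly from liver, whereas C1q and properdin are made largely by myeloid cells, among them macrophages and dendritic cells.

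Total counts were 32223256 to 46927434 per library, and the lowest count of any of the 8 genes in any library was 837, for C5ar1. Ern1, the gene in the genotype label, was higher rather than lower where the label says KO: its levels in CPM (the count scaled to library size) were 35.6 to 39.2 in KO zymosan against 29.5 to 30.7 in WT zymosan, 36.6 to 41.8 in KO LPS against 27.1 to 29.9 in WT LPS, and 48.2 to 54.6 in KO untreated against 40.2 to 43.3 in WT untreated. A count over the whole gene cannot check a deletion of some exons, so the libraries are called labelled KO. Libraries numbered 1 and 2 were close to each other, as were those numbered 3 and 4: the chi-square per gene had a median of 4.02 over these 12 pairs and 15.28 over the other 24 pairs. The WT LPS group was an exception, where replicates 3 and 4 had 7.75 and replicates 2 and 3 had 6.35. Most results between genotypes are therefore also given for each pair alone and with the counts of each pair summed. With pairs summed, the calls of C1qa, C1qb, C1qc, C3, Cfb and C5ar1 against untreated cells described below stayed. For zymosan in WT cells that of C1qa did so narrowly, as did that of Cfp (edgeR adjusted p = 0.0473 and 0.0489). Of the markers of other cells, the list for eosinophils, basophils and mast cells differed most between genotypes, with a summed level of 36.9 to 46.2 CPM in the 12 libraries labelled KO and 670 to 1133 CPM in the 12 WT libraries. Most of this gap was from Prg2 and Epx, at 5.21 to 8.52 and 0.754 to 0.883 CPM in the group means labelled KO. In the WT ones they were at 594 to 728 and 166 to 187 CPM. Mcpt8 went the other way in each condition, for example at 8.34 CPM in KO LPS against 3.44 in WT LPS. Of the 8 markers in this eosinophil, basophil and mast cell list, 2 were called higher and 4 lower in KO LPS than in WT LPS. With zymosan 3 of these markers were lower, untreated 4, and none was higher. Over all genes tested, 15.6% were called higher and 18.2% lower with LPS, 10.6% and 11.4% with zymosan, and 4.31% and 5.64% untreated. Macrophage markers summed to 15820 to 19500 CPM in libraries labelled KO and 15070 to 17790 CPM in WT libraries. Nearly all of this was Lyz2, at 15750 to 18110 CPM in the group means labelled KO and 14950 to 15920 CPM in the WT ones. Conventional dendritic cell markers summed higher in the libraries labelled KO in each condition, at 3039 to 3166 CPM in KO zymosan against 2393 to 2520 in WT zymosan, 2831 to 3066 in KO LPS against 2316 to 2567 in WT LPS, and 2217 to 2245 in KO untreated against 1666 to 1804 in WT untreated, mostly from H2-Aa, H2-Ab1 and Irf4, while Cd209a was at most 0.288 CPM in any group mean. Single markers of this list went both ways. Of the 10 tested, 4 were called higher and 3 lower in libraries labelled KO with LPS, and likewise untreated. With zymosan 5 were higher and 1 lower. Of all genes, 33.9% were called in either direction with LPS, 9.95% untreated and 22.1% with zymosan. Flt3 was at 0.9315 to 1.16 CPM in the group means labelled KO and 1.64 to 2.34 CPM in the WT ones. Of 11 neutrophil markers, 5 were called lower and none higher in libraries labelled KO with zymosan, and likewise untreated. With LPS 4 were higher and 4 lower, and the sums were 1958 to 2221 CPM in KO LPS against 1763 to 1912 CPM in WT LPS. The mean of Ly6g was lower in KO LPS than in WT LPS (2.04 against 6.17 CPM) and that of Elane higher (12.4 against 7.27 CPM). Plasmacytoid, B and T cell and fibroblast lists each stayed at or under 8.03 CPM, and hepatocyte markers reached at most 0.0502 CPM. The part of any of these cells in the results below was not tested. In bulk RNA, fewer cells of a type and less mRNA per cell cannot be told apart.

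All 8 transcripts were well expressed without a stimulus. In WT untreated cells, per kilobase of merged exon, Cfp had the highest level, with a range of 320.0 to 338 CPM per kb, followed by C1qb (184 to 236) and C3 (113 to 123). C1qa (79.6 to 103), C1qc (62.8 to 88.0) and Cfb (53.4 to 97.2) came next, and their ranges overlapped, so these neighbours were not separated beyond their spread. C3ar1 (46.8 to 48.6) and C5ar1 (27.3 to 30.4) were lowest. Among 14006 genes ranked by level per kilobase, Cfp stood at rank 148 and C5ar1 at rank 1340. Cfb stood higher in this order after each stimulus: it was at rank 112 in KO zymosan, 70 in WT zymosan, 57 in KO LPS, 37 in WT LPS, 682 in KO untreated and 555 in WT untreated.

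**Figure D1:**
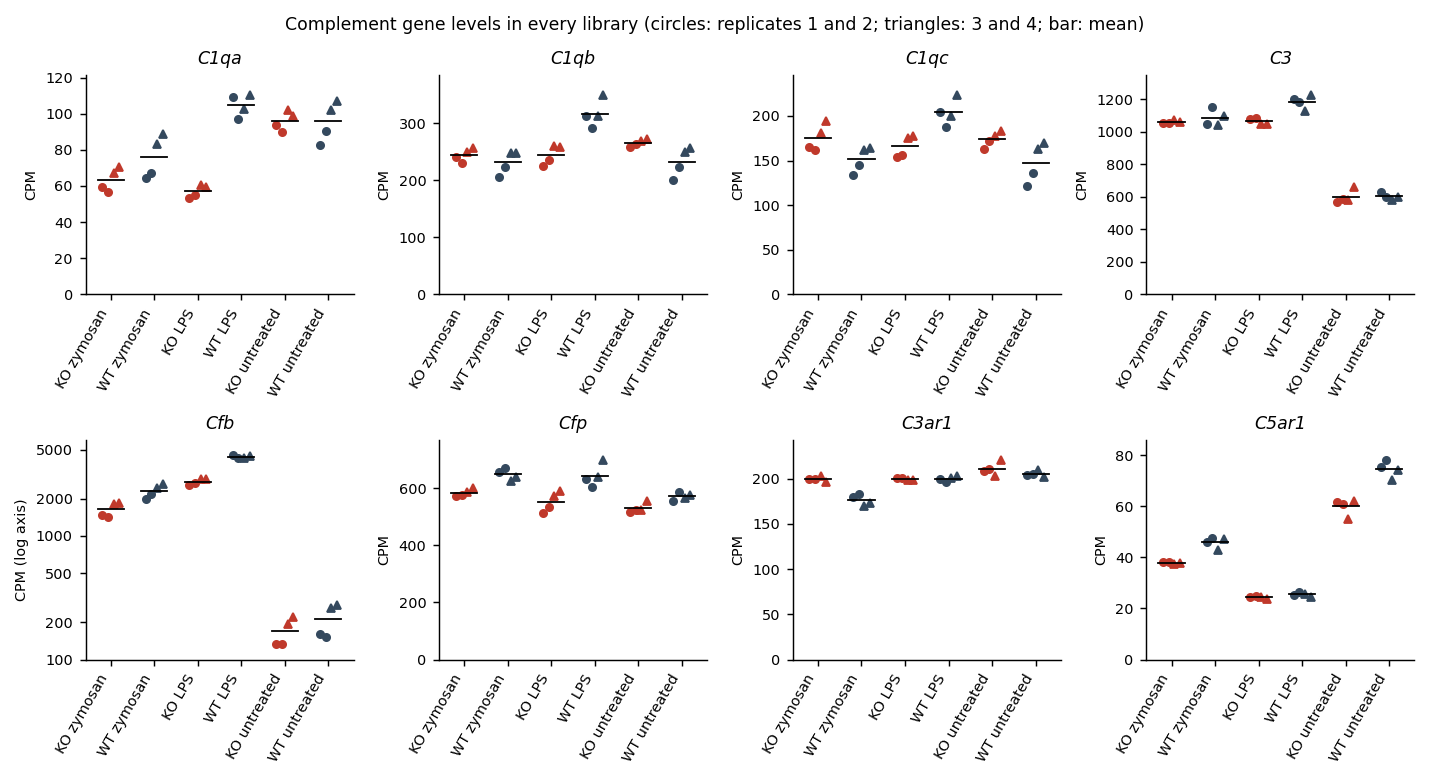
Level of each of the 8 genes in every library, in CPM (log axis for Cfb), with libraries labelled KO in red and WT libraries in dark blue; circles are replicates 1 and 2, triangles replicates 3 and 4, and the bar is the mean of 4. Cfb lay between 1422 and 4517 CPM in stimulated libraries, against 133 to 274.5 CPM in untreated ones, and C5ar1 was lowest in both LPS groups.

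The 3 C1q chain genes lie next to each other on the minus strand of chromosome 4 (GRCm38): C1qb (ENSMUSG00000036905) at chr4:136880129-136886187, C1qc (ENSMUSG00000036896) at chr4:136889804-136893065 and C1qa (ENSMUSG00000036887) at chr4:136895917-136898803. LPS raised C1qb and C1qc in WT cells, and in cells labelled KO C1qa was lower after either stimulus. C1qb was at 312, 292, 312 and 350 CPM in WT LPS, against 200.2, 223, 250.2 and 257 CPM in WT untreated. The WT LPS libraries were all above the untreated ones, by 0.45 ± 0.071 on the log2 scale (SE, n = 4 per group, edgeR adjusted p = 4.04e-06). C1qc showed the same order, at 205, 187, 199.7 and 224 CPM in WT LPS against 121, 136.5, 162.5 and 169.9 CPM in WT untreated, a log2 difference of 0.47 ± 0.087 (edgeR adjusted p = 3.28e-05). Scaling by library totals ended both calls (edgeR adjusted p = 0.342 for C1qb and 0.31 for C1qc).

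C1qa, the A chain, did not follow the B and C chains in WT LPS: it was at 109, 96.9, 102.5 and 110.6 CPM, against 82.8, 90.7, 102 and 107 CPM in WT untreated, and these ranges overlapped (log2 0.13 ± 0.09, edgeR adjusted p = 0.193). In cells labelled KO it was lower with LPS, at 53.4, 54.7, 60.4 and 59.5 CPM against 93.9, 90.1, 101.8 and 98.6 CPM in KO untreated, without overlap. This was a log2 difference of -0.75 ± 0.091 (edgeR adjusted p = 5.94e-08). Zymosan lowered C1qa in both genotypes. The levels were 59.4, 56.5, 67.4 and 70.5 CPM in KO zymosan, all below KO untreated (log2 -0.60 ± 0.091, edgeR adjusted p = 2.75e-06). They were 64.6, 67.0, 83.2 and 88.8 CPM in WT zymosan, where replicates 3 and 4 reached into the untreated range (log2 -0.33 ± 0.091, edgeR adjusted p = 0.00205).

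With TMM factors, neither C1qb nor C1qc was called after zymosan. C1qb was at 240.4, 230.4, 248.6 and 256 CPM in KO zymosan, against 258, 264, 269 and 272 CPM in KO untreated, and at 206, 223, 248 and 248 CPM in WT zymosan. The log2 difference was -0.12 ± 0.071 in cells labelled KO (edgeR adjusted p = 0.129) and -0.01 ± 0.071 in WT cells (edgeR adjusted p = 0.926). With the replicate number as a block nested in genotype, the C1qb decrease in cells labelled KO was called (edgeR adjusted p = 0.00787). Summing the pairs left it uncalled (edgeR adjusted p = 0.342). C1qc was at 165, 162, 180.4 and 194.5 CPM in KO zymosan, against 163, 172, 178 and 184 CPM in KO untreated, and at 134, 145.5, 162 and 164 CPM in WT zymosan (log2 0.01 and 0.04, neither called). After LPS in cells labelled KO, C1qb had 225.5, 235.5, 259.6 and 258 CPM and C1qc 154, 157, 175 and 177.5 CPM, log2 differences from KO untreated of -0.12 (95% interval -0.26 to 0.02) and -0.07 (-0.24 to 0.10) that did not pass.

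Because the chains did not move together, the composition of C1q mRNA differed between groups. Of the summed CPM per kilobase of the 3 chains, C1qa made up 16.2 ± 0.67% in KO zymosan, 19.98 ± 1.2% in WT zymosan, 15.0 ± 0.14% in KO LPS, 20.3 ± 0.63% in WT LPS, 21.6 ± 0.72% in KO untreated and 24.1 ± 0.24% in WT untreated (SD, n = 4 each). In each condition every library labelled KO had a lower C1qa share than every WT library. C1qb was the most abundant chain in all 6 groups, at 56.0 to 61.5% of the sum in the group means. These shares are a description, given without a test.

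**Figure D2:**
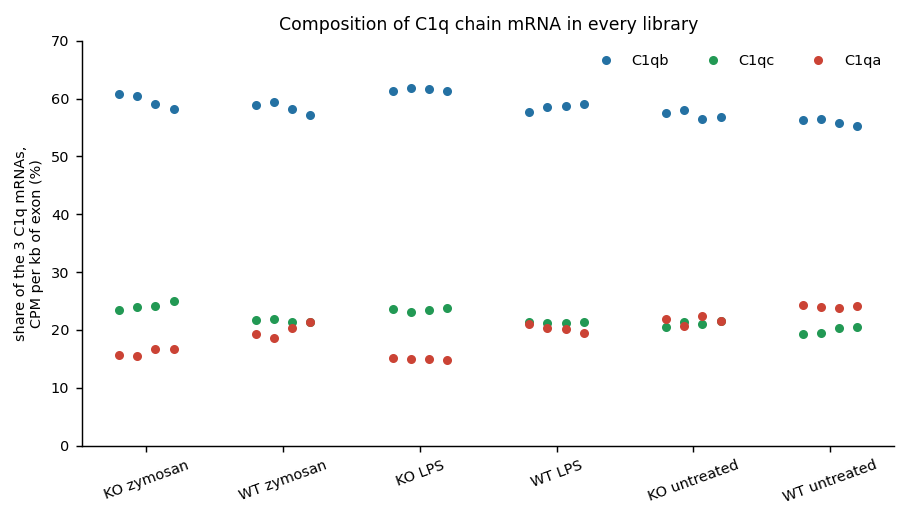
Share of each C1q chain in the summed CPM per kilobase of exon of the 3 chain mRNAs, in percent, for every library (4 points per chain and group). C1qa was at 14.8 to 15.2% in KO LPS and 19.5 to 21.1% in WT LPS, and C1qb stayed the largest share throughout.

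The 250 bases before the RefSeq start of C1qb (GRCm38.p6, chr4:136886201-136886450, minus strand) are shown as the chain whose level was highest.
C1qb: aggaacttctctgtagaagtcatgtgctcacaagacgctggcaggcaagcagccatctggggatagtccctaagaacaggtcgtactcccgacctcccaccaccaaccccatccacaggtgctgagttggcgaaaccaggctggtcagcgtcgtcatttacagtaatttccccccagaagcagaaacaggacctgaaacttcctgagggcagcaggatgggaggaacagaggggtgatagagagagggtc
Motifs were searched on both strands in such windows for the 6 members that matched the RefSeq table: C1qb, C1qc, C3, Cfp, C3ar1 and C5ar1. They were NF-kappaB (GGGA and TTTCC with 1 base of any kind between), the interferon-stimulated response element (GAAA and again GAAA with 2 bases between), the gamma-activated site (TTCNNNGAA), C/EBP (TTGCNNAA), AP-1 (TGANTCA) and PU.1 (GAGGAAGT), which occur in 0.356%, 2.98%, 7.02%, 9.56%, 6.75% and 2.44% of 32851 windows. The C1qb window held none of these letters. That of C1qc held the PU.1 letters on its minus strand, read as ACTTCCTC from -195 to -188 before the start. C3ar1 held the AP-1 letters as TGACTCA from -22 to -16, and Cfp and C5ar1 held none. A match is a description of the letters and not a site.

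C3 (ENSMUSG00000024164, chr17:57203970-57228136) and Cfb (ENSMUSG00000090231, chr17:34856374-34862518), both on the minus strand, were higher after each stimulus in each genotype. Cfb changed by the largest factor among the 8 genes. Its level was 1469, 1422, 1819 and 1852 CPM in KO zymosan against 133.1, 133, 194.9 and 221 CPM in KO untreated, and 1994, 2196, 2447 and 2626 CPM in WT zymosan against 161, 151, 263 and 274.5 CPM in WT untreated. With LPS it was 2603, 2676, 2871 and 2866 CPM in the libraries labelled KO and 4517, 4301, 4253 and 4464 CPM in WT. No stimulated library overlapped an untreated one, and in every group other than WT LPS replicates 3 and 4 were above replicates 1 and 2. The increase was 9.62-fold with zymosan and 16.15-fold with LPS in cells labelled KO, and 10.9-fold and 20.65-fold in WT cells (log2 3.27 ± 0.18, 4.01 ± 0.185, 3.45 ± 0.18 and 4.37 ± 0.19, edgeR adjusted p = 3.13e-14, 4.93e-16, 8.47e-15 and 8.45e-17). Zymosan gave a lower Cfb level than LPS, by log2 -0.75 ± 0.165 in cells labelled KO and -0.92 ± 0.165 in WT cells (edgeR adjusted p = 0.000654 and 5.56e-05). Cfb overlaps the read-through gene Gm20547 on the same strand, which was counted separately at no more than 1.80 CPM in any group mean.

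C3, the protein on which all pathways converge, was higher in every stimulated library than in any untreated one. Its level was 1203, 1186, 1127 and 1230 CPM in WT LPS, against 631, 598, 579.8 and 601 CPM in WT untreated, a 1.97-fold difference (log2 0.98 ± 0.045, edgeR adjusted p = 3.59e-16). In WT zymosan it was 1050, 1151, 1045 and 1100 CPM (log2 0.85 ± 0.045, edgeR adjusted p = 1.11e-14). In the libraries labelled KO it was 1056, 1056, 1071 and 1060 CPM with zymosan and 1079, 1088, 1051 and 1049 CPM with LPS, against 571, 588, 579.6 and 661 CPM untreated. These were log2 differences of 0.82 ± 0.045 and 0.83 ± 0.045 (edgeR adjusted p = 3.16e-14 and 1.37e-14). The stimulated groups lay far above the untreated ones and close to each other. In WT cells zymosan gave a slightly lower level than LPS (log2 -0.13 ± 0.045, edgeR adjusted p = 0.0222). This call ended with the replicate pairs summed, with library totals and without a filter (edgeR adjusted p = 0.195, 0.0825 and 0.0604). It also ended without WT zymosan replicate 1 or 3 or WT LPS replicate 1 or 4 (edgeR adjusted p = 0.0524 to 0.0737).

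Properdin, encoded by Cfp (ENSMUSG00000001128, chrX:20925454-20931555, minus strand), moved little in comparison. It was at 573, 575, 588 and 601 CPM in KO zymosan against 517, 522, 522 and 555.5 CPM in KO untreated, and at 655, 670.4, 626 and 639 CPM in WT zymosan against 555.5, 587, 566.5 and 577 CPM in WT untreated. The zymosan libraries lay above their untreated ones in each genotype (log2 0.14 ± 0.046 in cells labelled KO and 0.18 ± 0.046 in WT cells, edgeR adjusted p = 0.00843 and 0.00122). With LPS it was 513, 534, 573 and 588 CPM in the libraries labelled KO, which overlapped KO untreated (log2 0.06 ± 0.046, edgeR adjusted p = 0.24). In WT LPS it was 633, 602, 639 and 699 CPM, above WT untreated (log2 0.17 ± 0.046, edgeR adjusted p = 0.00185). Scaling by library totals reversed all 4 of these Cfp differences, to between -0.22 and -0.16, and each was then called lower (edgeR adjusted p = 9.16e-06 to 0.00043). Summing replicate pairs ended the calls for zymosan in cells labelled KO and for LPS in WT cells (edgeR adjusted p = 0.123 and 0.0609).

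The upstream windows of C3 (GRCm38.p6, chr17:57228137-57228386, minus strand) and Cfp (chrX:20931556-20931805, minus strand) are set side by side, as an alternative pathway pair in which the stimulus differences of C3 were log2 0.82 to 0.98 and those of Cfp 0.06 to 0.18; capitals mark the C/EBP letters, read as TTGCGAAA from -45 to -38 before the C3 start, and nothing in Cfp.
C3: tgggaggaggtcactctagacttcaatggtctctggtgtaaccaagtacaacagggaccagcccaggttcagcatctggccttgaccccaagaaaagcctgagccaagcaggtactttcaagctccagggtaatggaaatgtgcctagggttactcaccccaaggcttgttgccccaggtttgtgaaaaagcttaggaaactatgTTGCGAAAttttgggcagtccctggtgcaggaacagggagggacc
Cfp: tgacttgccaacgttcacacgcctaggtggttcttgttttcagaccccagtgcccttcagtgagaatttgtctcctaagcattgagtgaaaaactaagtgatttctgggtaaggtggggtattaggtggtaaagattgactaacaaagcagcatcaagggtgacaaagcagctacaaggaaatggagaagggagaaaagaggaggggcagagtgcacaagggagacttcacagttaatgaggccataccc
The sequences are from RefSeq.

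Of the anaphylatoxin receptors, C5ar1 fell after each stimulus in each genotype, whereas C3ar1 differed by at most 0.22 on the log2 scale with TMM factors. C5ar1, the receptor for C5a (ENSMUSG00000049130, chr7:16246743-16259540, minus strand), was at 38.2, 38.15, 37.3 and 37.9 CPM in KO zymosan and 24.4, 24.8, 24.5 and 23.7 CPM in KO LPS, against 61.7, 60.7, 55.1 and 62.1 CPM in KO untreated. In WT cells it was at 46.2, 47.6, 43.1 and 47.35 CPM with zymosan and 25.1, 26.5, 25.7 and 24.6 CPM with LPS, against 75.5, 78.2, 70.1 and 74.2 CPM untreated. In each genotype the 3 conditions did not overlap, with LPS lowest. The level was 1.58-fold lower with zymosan and 2.46-fold lower with LPS in cells labelled KO, and 1.62-fold and 2.92-fold lower in WT cells (log2 -0.66, -1.30, -0.69 and -1.55, each SE at or under 0.044, edgeR adjusted p = 7.61e-13, 7.85e-19, 1.54e-13 and 1.65e-20).

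C3ar1, the receptor for C3a (ENSMUSG00000040552, chr6:122847138-122856161, minus strand), had similar levels in 5 of the 6 groups. It was at 199.6, 199.1, 202.7 and 196 CPM in KO zymosan and 200.6, 201, 198.7 and 198.9 CPM in KO LPS, against 208, 211, 203 and 221 CPM in KO untreated. In WT cells it was at 180.2, 183, 169 and 173 CPM with zymosan and 199.8, 196.5, 200.4 and 203 CPM with LPS, against 204, 206, 209 and 201 CPM untreated. The WT zymosan libraries were all below those of the other 5 groups, by log2 -0.22 ± 0.033 from WT untreated (edgeR adjusted p = 1.86e-06). The differences from KO untreated, -0.08 ± 0.033 with zymosan and -0.08 ± 0.033 with LPS, passed narrowly (edgeR adjusted p = 0.0359 and 0.0413). Summed pairs (edgeR adjusted p = 0.241 and 0.25), either pair alone and leaving out KO untreated replicate 2 or 4 ended both. The nested replicate block also ended both (edgeR adjusted p = 0.0561 and 0.0668). So did DESeq2 size factors, no filter and only the groups compared (edgeR adjusted p = 0.0874 to 0.258). DESeq2 itself ended the LPS call (DESeq2 adjusted p = 0.139). The zymosan call also ended without KO zymosan replicate 1, 2 or 4, and the LPS call without any single KO LPS library (edgeR adjusted p = 0.0604 to 0.0778).

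Counted together, zymosan in cells labelled KO raised 3 of the 8 genes (C3, Cfb and Cfp) and lowered 3 (C1qa, C3ar1 and C5ar1), where 66.8% of all 14188 genes tested were called in either direction (31.6% higher, 35.2% lower). In WT cells zymosan also raised 3 and lowered 3, the genes being as in cells labelled KO, against 70.2% of all genes (34.3% higher, 35.9% lower). LPS in cells labelled KO raised 2 (C3 and Cfb) and lowered 3 (C1qa, C3ar1 and C5ar1), against 71.8% (34.4% higher, 37.4% lower). LPS in WT cells raised 5 (C1qb, C1qc, C3, Cfb and Cfp) and lowered C5ar1, against 75.6% (35.9% higher, 39.7% lower). The shares called in either direction are near those of all genes. For LPS in WT cells more of the 8 genes were higher, and fewer lower, than over all genes, which with 8 genes is a description only. The median log2 difference of the 8 genes was -0.035 with zymosan and -0.07 with LPS in cells labelled KO, and 0.015 and 0.31 in WT cells, beside -0.03, -0.02, -0.01 and -0.04 over all genes tested. Zymosan against LPS gave 1 gene higher and 1 lower in cells labelled KO (C5ar1 and Cfb, 42.7% of all genes called, 22.7% higher and 20% lower), and 1 higher and 6 lower in WT cells (46.4%, 24.5% higher and 21.9% lower). In WT cells C5ar1 was higher with zymosan, and C1qa, C1qb, C1qc, C3, Cfb and C3ar1 were lower. The zymosan and LPS comparisons share their untreated libraries.

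**Figure D3:**
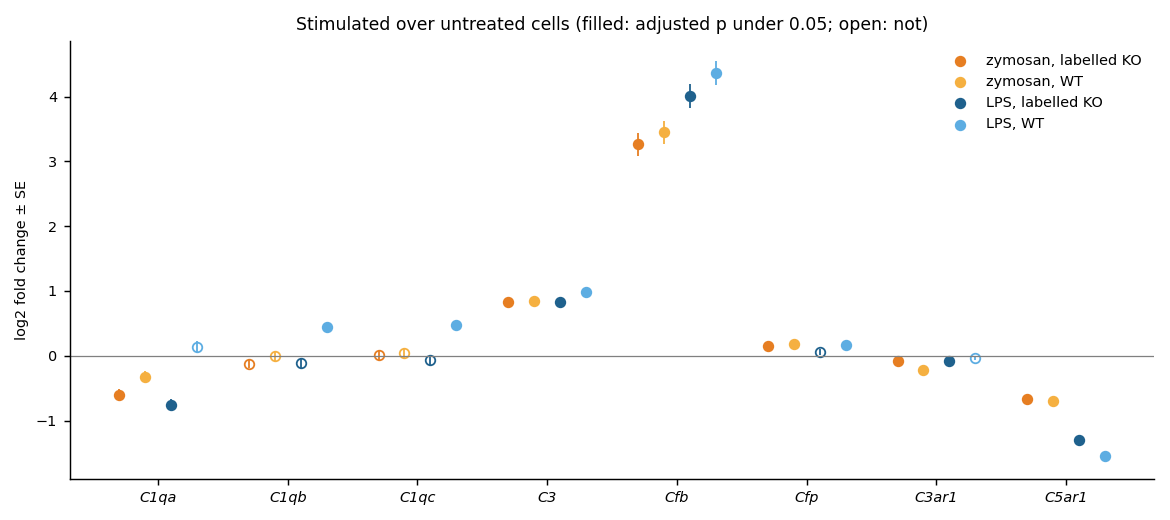
Log2 fold change ± SE of stimulated over untreated cells for each gene, in cells labelled KO and WT cells; filled points have an edgeR adjusted p under 0.05. Cfb lies between 3.27 and 4.37 in all 4 comparisons, C3 between 0.82 and 0.98, and C5ar1 between -1.55 and -0.66.

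The scaling of libraries bears on the smaller of these differences. With library totals in place of TMM factors, the median log2 difference of all genes moved by -0.30 (zymosan) and -0.28 (LPS) in cells labelled KO, and by -0.35 and -0.38 in WT cells. The share of calls that were higher was then 22.4% against 47.3% with TMM for zymosan and 27.1% against 48% for LPS in cells labelled KO, and 22.8% against 48.9% and 24.9% against 47.5% in WT cells. Besides Cfp, C1qc with zymosan turned to -0.29 in cells labelled KO and -0.31 in WT cells, and C1qa with LPS in WT cells to -0.25. C1qb with zymosan was called lower in both, at -0.43 in cells labelled KO and -0.36 in WT cells (edgeR adjusted p = 1.2e-06 and 1.32e-05), and with LPS in cells labelled KO C1qb and C1qc were called lower (-0.40 and -0.35, edgeR adjusted p = 2.95e-06 and 0.000281). C3ar1 was at -0.38 with zymosan and -0.35 with LPS in cells labelled KO, and at -0.57 and -0.42 in WT cells, where the LPS difference was then called (edgeR adjusted p = 1.47e-11). The C1qc values with zymosan and the C1qa value with LPS were less negative than the shift of all genes. The directions of C3, Cfb and C5ar1 against untreated cells were the same under every scaling tried.

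Between genotypes, the largest set of differences was seen with LPS, where C1qa, C1qb, C1qc, C3, Cfb and Cfp were lower in the libraries labelled KO and none was higher. That is 6 of 8 genes called lower, against 18.2% of all genes tested called lower, 15.6% called higher and 33.9% called in either direction. The median log2 difference of the 8 was -0.26, beside 0.01 over all genes. For each of these 6 genes the 4 KO LPS libraries lay below all 4 WT LPS libraries. C1qa had 57.0 ± 3.5 CPM in KO LPS and 104.8 ± 6.3 CPM in WT LPS (SD, n = 4 each), 1.84-fold lower (log2 -0.88 ± 0.092, edgeR adjusted p = 7.42e-08). Cfb had 2754 ± 136 and 4384 ± 127 CPM, 1.59-fold lower (log2 -0.67 ± 0.16, edgeR adjusted p = 0.00261). C1qb had a log2 difference of -0.37 ± 0.071, C1qc of -0.30 ± 0.087, Cfp of -0.22 ± 0.046 and C3 of -0.15 ± 0.045 (edgeR adjusted p = 0.000256, 0.0099, 0.000634 and 0.00981). The receptors did not pass: C3ar1 had a log2 difference of -0.001 (95% interval -0.065 to 0.063) and C5ar1 one of -0.065 (-0.153 to 0.023).

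Within replicates 1 and 2 alone, and 3 and 4 alone, the LPS differences of these genes kept their sign. They were -0.93 and -0.83 for C1qa, -0.74 and -0.60 for Cfb, -0.39 and -0.36 for C1qb, -0.34 and -0.265 for C1qc, -0.24 and -0.205 for Cfp, and -0.14 and -0.17 for C3. With pairs summed, leaving 2 sums per group, C1qa and C1qb stayed called (edgeR adjusted p = 0.00195 and 0.036), and Cfb, C1qc, Cfp and C3 did not (edgeR adjusted p = 0.0988, 0.142, 0.0725 and 0.144). Library totals ended the C3 call (log2 -0.067, edgeR adjusted p = 0.25) and gave 70.8% of all calls higher, against 46.2% with TMM. Of the 9 macrophage markers tested, 6 were also lower in KO LPS than in WT LPS (Adgre1, Apoe, Cd68, Fcgr1, Mertk and Mrc1, log2 -0.77 to -0.37), and 1 was higher. The summed level of the list was 15820 to 17360 CPM in KO LPS and 16010 to 17030 CPM in WT LPS. Nearly all of that sum was Lyz2, with means of 15750 and 14950 CPM, so it says little about the other markers. The part of these markers in the result was not tested.

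With zymosan, 4 of the 8 genes were lower in libraries labelled KO and 1 was higher, against 22.1% of all genes called in either direction (10.6% higher, 11.4% lower). Cfb had 1640 ± 226.5 CPM in KO zymosan and 2316 ± 278 CPM in WT zymosan, 1.41-fold lower and without overlap (log2 -0.50 ± 0.16, edgeR adjusted p = 0.0307). C5ar1 (log2 -0.28 ± 0.043) and Cfp (-0.15 ± 0.046) were also lower without overlap, and C1qa (-0.26 ± 0.092) with overlapping libraries (edgeR adjusted p = 2.82e-05, 0.0221 and 0.0442). Of 11 neutrophil markers 5 were lower and none higher in KO zymosan, with sums of 1774 to 2224 CPM against 1945 to 2658 CPM in WT zymosan. With LPS this list went both ways (4 higher, 4 lower). The part of these markers in the C5ar1 difference was not tested. C3ar1 was higher in the libraries labelled KO, at 199 ± 2.7 CPM against 176 ± 6.2 CPM in WT zymosan (log2 0.18 ± 0.033, edgeR adjusted p = 0.000264). In replicates 1 and 2 alone and 3 and 4 alone the values were -0.535 and -0.46 for Cfb, -0.30 and -0.26 for C5ar1, -0.21 and -0.085 for Cfp, -0.18 and -0.31 for C1qa, and 0.14 and 0.22 for C3ar1. Summing pairs left only the C5ar1 call (edgeR adjusted p = 0.0128), with Cfb, C1qa, Cfp and C3ar1 at edgeR adjusted p = 0.284, 0.298, 0.28 and 0.101. Leaving out WT zymosan replicate 3 or 4, or KO zymosan replicate 1 or 2, ended the C1qa and Cfb calls (3, 3, 2 and 2 genes left called). The Cfp call ended without WT zymosan replicate 2 (edgeR adjusted p = 0.0735) and without KO zymosan replicate 1 or 2 (edgeR adjusted p = 0.0652 and 0.0634). C3 (log2 -0.035), C1qb (0.08) and C1qc (0.21, edgeR adjusted p = 0.0868) did not pass. The C1qa call also ended with library totals and with only the groups compared (edgeR adjusted p = 0.0538 and 0.11), and the Cfp call without a filter (edgeR adjusted p = 0.0604) or in replicates 3 and 4 alone (edgeR adjusted p = 0.272). Library totals gave 60% of all calls higher, against 48.2% with TMM.

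Without a stimulus, C5ar1 was the 1 gene called, where 9.95% of all genes were called (4.31% higher, 5.64% lower). It had 59.9 ± 3.3 CPM in KO untreated and 74.5 ± 3.4 CPM in WT untreated, 1.24-fold lower without overlap (log2 -0.31 ± 0.041, edgeR adjusted p = 5.31e-06), and it stayed called with pairs summed (edgeR adjusted p = 0.0106). C1qb and C1qc were at log2 0.19 ± 0.071 and 0.24 ± 0.087 (edgeR adjusted p = 0.0971 and 0.0876), Cfb at -0.32 ± 0.17 and Cfp at -0.11 ± 0.046 (edgeR adjusted p = 0.288 and 0.151). C1qa, C3 and C3ar1 differed by 0.01, -0.01 and 0.04. In replicates 1 and 2 alone the C1qb and C1qc values were 0.30 and 0.38, and in replicates 3 and 4 alone 0.10 and 0.13. Cfb was called lower in each pair alone, at -0.23 and -0.36 (edgeR adjusted p = 0.00188 and 0.000406). With pairs summed Cfb was not called (edgeR adjusted p = 0.778). In replicates 1 and 2 alone C1qb, C1qc and Cfp were also called (edgeR adjusted p = 0.000237, 4.57e-05 and 0.0135), and in replicates 3 and 4 alone they were not. Without WT untreated replicate 4, C1qb and C1qc were called higher in the libraries labelled KO (edgeR adjusted p = 0.0381 and 0.0227). Neutrophil markers were lower in 5 of 11 cases in these libraries and summed to 2027 to 2405 CPM in KO untreated against 2163 to 2848 CPM in WT untreated. With LPS 4 of them were higher and 4 lower. Their part in the C5ar1 difference was not tested.

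**Figure D4:**
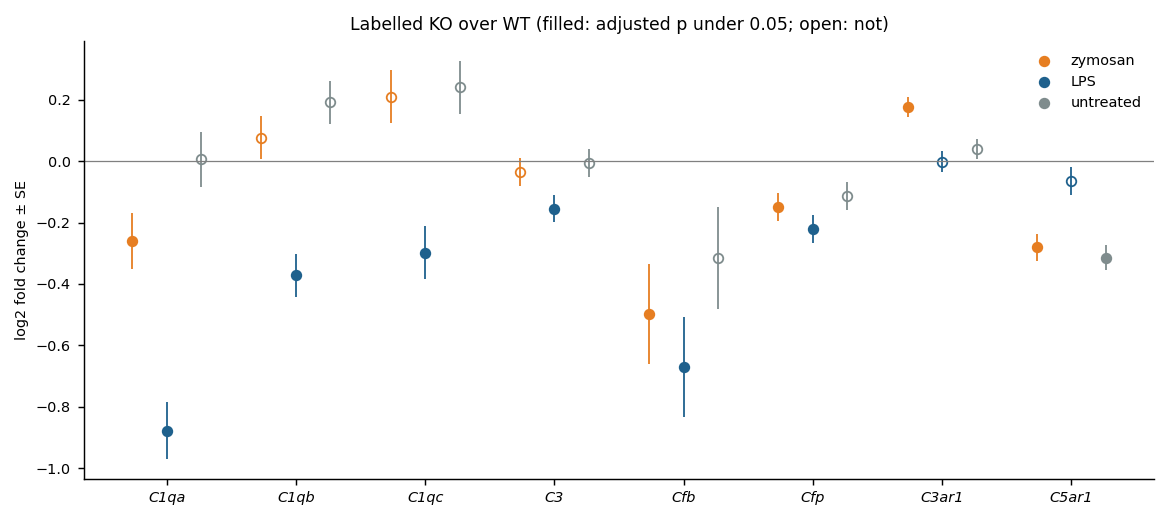
Log2 fold change ± SE of libraries labelled KO over WT libraries for each gene, with zymosan, with LPS and untreated; filled points have an edgeR adjusted p under 0.05. With LPS, C1qa lies at -0.88 and Cfb at -0.67, while C5ar1 is lower with zymosan (-0.28) and untreated (-0.31).

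Whether the response itself differed by genotype was tested as an interaction. For LPS, 3 genes had a lower and 1 a higher log2 response in cells labelled KO, where 10.4% of all genes were called (4.61% higher, 5.84% lower). The 3 were the C1q chains. C1qa responded by -0.75 in cells labelled KO and 0.13 in WT cells, a difference of -0.88 ± 0.13 (edgeR adjusted p = 0.000175). C1qb responded by -0.12 and 0.45, a difference of -0.565 ± 0.10 (edgeR adjusted p = 0.00101), and C1qc by -0.07 and 0.47, a difference of -0.54 ± 0.12 (edgeR adjusted p = 0.00623). The fall of C5ar1 was smaller in cells labelled KO, -1.30 against -1.55 in WT cells, a difference of 0.25 ± 0.061 (edgeR adjusted p = 0.0101). The responses of Cfb, C3 and Cfp had differences of -0.355 ± 0.23, -0.15 ± 0.063 and -0.11 ± 0.065 that did not pass (edgeR adjusted p = 0.365, 0.142 and 0.311), so a lower level of these genes in KO LPS is not shown to be a different response. The Cfb difference was called in replicates 1 and 2 alone (-0.51, edgeR adjusted p = 3.15e-05). It was not called in replicates 3 and 4 alone (-0.24, edgeR adjusted p = 0.0605) or with pairs summed (edgeR adjusted p = 0.734). In replicates 1 and 2 alone and 3 and 4 alone the differences were -1.015 and -0.77 for C1qa, -0.695 and -0.45 for C1qb, -0.72 and -0.39 for C1qc, and 0.26 and 0.23 for C5ar1. With pairs summed none of the 4 passed (edgeR adjusted p = 0.15, 0.184, 0.278 and 0.285). Of the 9 macrophage markers, 4 (Adgre1, Cd68, Fcgr1 and Mertk) also had a lower LPS response in cells labelled KO, and their part in the C1q result was not tested. Library totals moved the median interaction of all genes by 0.104, with 79.1% of calls higher against 44.1% with TMM.

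For zymosan, none of the 8 genes had a called interaction with edgeR, and 1 was called with DESeq2 (C3ar1, DESeq2 adjusted p = 0.0325); 1.82% of all genes were called by edgeR (0.973% higher, 0.846% lower). The unadjusted edgeR p was 0.0491 for C1qa (-0.27 ± 0.13) and 0.00607 for C3ar1 (0.14 ± 0.046). The share of all genes with an unadjusted p under 0.05, or called with DESeq2, is not given here, so these values have no background beside them. Library totals gave 76.6% of all calls higher, against 53.5% with TMM. The difference between the zymosan and LPS interactions was not tested.

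Of 46 other genes of the complement system, 24 passed the filter on low counts. The remaining 22 had at most 81 counts over the 24 libraries, and 6 of them had none. Several of the 24 have near-identical copies between which reads could be split (C4a and C4b, C1ra and C1rb, C1s1 and C1s2, Cd59a and Cd59b, Cd55 and Cd55b), and C2 overlaps Gm20547, so their counts are less certain. Zymosan raised 6 and lowered 6 of the 24 in cells labelled KO (31.6% and 35.2% of all genes) and raised 6 and lowered 9 in WT cells (34.3% and 35.9%). LPS raised 8 and lowered 9 in cells labelled KO (34.4% and 37.4% of all genes) and raised 8 and lowered 10 in WT cells (35.9% and 39.7%), where the median log2 difference was -0.125, beside -0.04 over all genes.

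In the classical and lectin group of 7 tested genes, LPS raised 4 and lowered 1 in each genotype, where 34.4% of all genes were higher and 37.4% lower in cells labelled KO and 35.9% and 39.7% in WT cells. C2, which supplies the protease of the classical C3 convertase, was at 4.51 CPM in KO LPS against 0.827 in KO untreated and 3.58 CPM in WT LPS against 0.360 in WT untreated (log2 2.45 and 3.29, edgeR adjusted p = 1.06e-13 and 4.19e-15). C1ra, the protease bound to C1q, was at 52.6 against 23.0 CPM and 76.3 against 30.8 CPM (log2 1.19 and 1.31, edgeR adjusted p = 1.31e-14 and 9.75e-16). Colec12, a scavenger receptor with a collectin domain, was lower in both genotypes (log2 -1.56 and -1.50). Of the 3 tested genes of the terminal pathway group, LPS raised 1 and lowered none in cells labelled KO, and raised 1 and lowered 2 in WT cells. Hc, which encodes C5, was higher with LPS (log2 1.54 in cells labelled KO and 2.77 in WT cells) but was at most 0.589 CPM in every group mean. In WT cells C7 was at 0.292 CPM with LPS against 0.668 untreated, and C8g at 0.532 against 0.751 CPM.

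Among 8 tested regulators, LPS raised 3 and lowered 2 in each genotype, against the same shares of all genes. Clu (clusterin, an inhibitor of the terminal complex) was at 137.3 CPM in KO LPS against 54.8 in KO untreated and 63.6 CPM in WT LPS against 28.9 in WT untreated (log2 1.32 and 1.14). Serping1, the C1 inhibitor, was higher with LPS (log2 1.22 and 2.01). Of 6 other receptors and binding proteins, LPS lowered 6 in cells labelled KO and 5 in WT cells, and raised none (37.4% and 39.7% of all genes were lower). Cd93, a C1q-related surface glycoprotein, was at 14.2 against 69.3 CPM in cells labelled KO and 11.35 against 72.3 CPM in WT cells (log2 -2.29 and -2.67). C5ar2, the other C5a receptor, was at 1.52 against 5.41 CPM and 1.53 against 7.07 CPM (log2 -1.83 and -2.20). The integrin chains of complement receptor 3, Itgam and Itgb2, were lower with LPS, at log2 -0.625 and -0.175 in cells labelled KO and -0.73 and -0.27 in WT cells.

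Between genotypes, 4 of the 24 were higher and 6 lower in libraries labelled KO with zymosan (10.6% and 11.4% of all genes), 7 higher and 9 lower with LPS (15.6% and 18.2%), and 2 higher and 7 lower untreated (4.31% and 5.64%). In the classical and lectin group, 3 genes were lower in all 3 conditions: C1ra (log2 -0.455, -0.54 and -0.42 with zymosan, with LPS and untreated), C1s1 (-0.77, -0.65 and -0.72) and C4a (-0.74, -0.725 and -0.81). C2 of the same group went the other way, at log2 0.38, 0.33 and 1.17 (edgeR adjusted p = 0.0589, 0.047 and 0.000168). Cd55, a membrane regulator that speeds the decay of convertases, was lower by the widest margin of the regulators (-1.88, -1.33 and -1.55, edgeR adjusted p = 1.8e-09, 4.69e-07 and 3.19e-08), at 1.51 to 1.66 CPM in the group means labelled KO and 4.18 to 5.625 CPM in the WT ones. Clu was higher in all 3 (0.62, 1.11 and 0.925, edgeR adjusted p = 0.00156, 8.63e-07 and 3.65e-05). C7, a part of the terminal complex, had 0 counts in the 4 KO LPS libraries against 42 in WT LPS, and 0 in KO untreated against 127 in WT untreated, at least 15.1-fold and at least 44.0-fold lower with a floor of 3 counts over the group. It had at most 0.668 CPM in any group mean. In the interactions, C1qbp responded differently to zymosan (log2 0.42, edgeR adjusted p = 0.00592), and C2 (-0.84) and Cd93 (0.385) to LPS (edgeR adjusted p = 0.0251 and 0.0158).

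**Figure D5:**
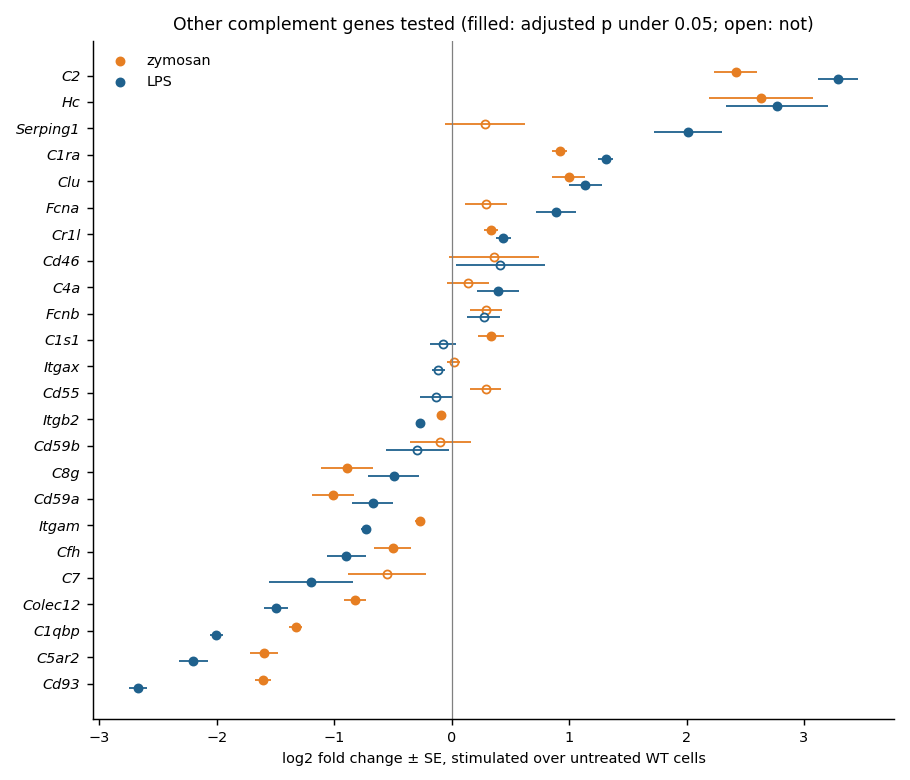
Log2 fold change ± SE of zymosan-treated and LPS-treated over untreated WT cells for the 24 other complement genes tested, ordered by the LPS value; filled points have an edgeR adjusted p under 0.05. C2 and Hc are highest (3.29 and 2.77 with LPS), and Cd93, C5ar2 and C1qbp are lowest (-2.67, -2.20 and -2.00).

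Across the 24 libraries, the 8 genes fell into patterns that can be described by Pearson's r of log2 CPM, given without a test because libraries of a group share their treatment and genotype. C3 and Cfb had r = 0.98, and each ran against C5ar1 (r = -0.84 and -0.88). C1qb and C1qc had r = 0.935, while C1qa had 0.59 with C1qb and 0.37 with C1qc. Among 9054 candidates averaging 5 CPM or more, the closest to Cfb were Ms4a6d and Irf7 (both 0.997), to C3 Dtx3l (0.995) and Rab20 (0.994), and to C5ar1 Cd300ld (0.985) and Pde3b (0.984). Those closest to Cfp were Pdpn (0.916) and Arcn1 (0.912), to C1qc Zyx (0.911) and Slc30a1 (0.882), to C1qa March8 (0.893) and Itgb7 (0.883), to C1qb Glipr1 (0.872) and Csrp1 (0.833), and to C3ar1 Ahrr (0.834) and Zfp710 (0.833).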

How the data were processed

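Messenger RNA of 24 libraries in 6 groups was measured. The authors deposited 1 table of whole-number counts per Ensembl gene; build mm10 and the tools RSEM 1.2.31, DESeq2 and Bowtie2 are named in the submitters' processing notes. The role of each, the strand setting and how reads of near copies were shared are not given in the sources used here. The deposited counts were used unchanged, although the plan allowed for rounding of decimals. GENCODE M21 (GRCm38) named 37570 of 38887 identifiers (96.6%) and gave positions and exon lengths. Totals were 32223256 to 46927434 per library.

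Counts were fitted with edgeR 4.0.16 (R 4.3.3) over all 24 libraries with 1 mean per group, TMM factors (0.880 to 1.19) and filterByExpr, which kept 14188 genes; the common biological coefficient of variation was 0.0686. In all, 11 contrasts were tested by quasi-likelihood and adjusted by Benjamini-Hochberg over all genes tested, with calls under 0.05. CPM is the count relative to the library total scaled by the TMM factor, and log2 CPM used a prior count of 2. The fit was tested on simulated data. Alternatives were DESeq2 1.42.0, its size factors, library totals, no filter, only the groups compared, a replicate block, the same block nested in genotype, replicate pairs summed or alone, and each library left out.

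The main fit did not pair libraries by replicate number. For zymosan against untreated, same-numbered libraries deviated together in each genotype (correlation 0.125 to 0.205 in cells labelled KO and 0.151 to 0.247 in WT cells). The closest untreated library had another number for WT zymosan replicate 1 and KO zymosan replicates 1 and 3. Between genotypes, untreated replicates 3 and 4 had 0.134 and 0.111. Whether the numbers mark pairs was therefore not settled.

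The members and lists were chosen with earlier results of these data known. Named are the 8 members, other complement genes called in some comparison, the 2 genes closest to each member, marker lists by counts and sums, and Ern1. The result of a further marker gene is not reported here. Promoter sequences are from RefSeq (GRCm38.p6).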

Additional observations from a re-analysis of the deposited data

Results flagged for a closer look

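For LPS, the response differed between cells labelled KO and WT cells in 4 of the 8 genes by the edgeR interaction test: C1qa by -0.88, C1qb by -0.56, C1qc by -0.54 and C5ar1 by 0.25 on the log2 scale. Properdin mRNA (Cfp) in KO untreated replicate 4 was 555.5 CPM, apart from the other 3 libraries of that group at 516.7 to 522.1 CPM. It was the 1 of 48 sets of 4 libraries in which a library stood so far from the rest, and chance alone singles out about 1 in 20 such sets.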

How the results depend on the processing

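Of the values recomputed under alternatives other than leaving out a library, 745 kept their direction and side of the threshold, 36 became called, 40 lost the call and 35 changed direction. For the comparisons of libraries labelled KO with WT libraries, the number of the 8 genes called untreated (1) became 2 with library totals, 3 with the replicate block, 5 with the first pair (replicates 1 and 2) and 2 with the second (3 and 4); with replicate pairs summed it became 1 for zymosan (from 5), 2 for LPS (from 6) and 0 for the LPS interaction (from 4, with edgeR adjusted p = 0.15 to 0.285). For LPS in cells labelled KO the count became 8 with library totals (from 5), and for the zymosan interaction (0) it became 1 with DESeq2, 1 with library totals and 2 with replicates 1 and 2 alone. Of all 14188 genes, library totals called 2926 higher and 7864 lower for LPS in cells labelled KO. They called 497 higher and 895 lower between genotypes untreated, and 262 and 80 for the zymosan interaction. For the other alternatives and the left-out libraries, shares of all genes are not given here, so those counts are a description only.

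Directions that changed with library totals were zymosan C1qc (-0.294 in cells labelled KO, -0.311 in WT cells) and Cfp (-0.159, -0.17), LPS Cfp (-0.217 in cells labelled KO, -0.211 in WT cells) and C1qa in WT cells (-0.25), genotype untreated C1qa (-0.011), genotype with LPS C3ar1 (0.085) and C5ar1 (0.021), the zymosan interactions of C1qc (0.017), C3 (0.021) and Cfp (0.011) and the LPS interaction of C3ar1 (0.065). With DESeq2, and likewise with its size factors in edgeR, zymosan C1qb in WT cells became 0.007, LPS C3ar1 in WT cells 0.001 and zymosan over LPS Cfp in WT cells -0.012. Without a filter, zymosan C1qc in cells labelled KO became -0.004 and genotype C3ar1 with LPS 0.001; with only the groups compared that C3ar1 difference was 0.01. With the replicate block nested in genotype, zymosan over LPS Cfp in WT cells was -0.004. Replicates 1 and 2 alone turned zymosan C1qb in WT cells (0.021), zymosan C1qc (-0.037) and zymosan over LPS C1qb (0.031) in cells labelled KO, genotype C3ar1 with LPS (0.019) and the zymosan interaction of C3 (0.024). Replicates 3 and 4 alone turned zymosan C1qc (-0.035) and zymosan over LPS Cfp (-0.099) in WT cells, zymosan over LPS C3 in cells labelled KO (0.008), genotype untreated C1qa (-0.058) and C3 (0.076) and the zymosan interaction of C1qc (0.078). Apart from Cfp under library totals with zymosan in both genotypes and with LPS in WT cells, none of these had been called. The cause was not tested.

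Leaving out each library gave 1 to 3 genes called by genotype untreated, 2 to 5 with zymosan and 6 to 6 with LPS. It gave 5 to 6 for zymosan and 4 to 5 for LPS in cells labelled KO, 6 to 6 for each in WT cells, 2 to 2 and 6 to 7 for zymosan over LPS, and 0 to 0 and 4 to 4 for the zymosan and LPS interactions. Small differences crossed 0 in these ranges: genotype untreated C1qa (-0.057 to 0.066) and C3 (-0.055 to 0.018), genotype with LPS C3ar1 (-0.009 to 0.007), zymosan C1qb (-0.074 to 0.044) and C1qc (-0.045 to 0.114) in WT cells and C1qc (-0.043 to 0.046) in cells labelled KO, zymosan over LPS C1qb (-0.041 to 0.026), C3 (-0.016 to 0.002) and C3ar1 (-0.011 to 0.005) in cells labelled KO and Cfp (-0.020 to 0.052) in WT cells, and the zymosan interactions of C1qc (-0.104 to 0.054), C3 (-0.052 to 0.021) and C5ar1 (-0.005 to 0.061).

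With the replicate block, in comparisons other than zymosan against untreated, C1qb and C1qc untreated (0.198 and 0.25) and C1qc with zymosan (0.213) became called between genotypes (edgeR adjusted p = 0.00379, 0.00106 and 0.00271). So did LPS C1qa in WT cells (0.137) and C1qb in cells labelled KO (-0.122, edgeR adjusted p = 0.0299 and 0.0186), and zymosan over LPS C1qa in cells labelled KO (0.151, edgeR adjusted p = 0.0355). With pairs summed none of these 6 was called (edgeR adjusted p = 0.335 to 0.572). No member was limited by depth, since each had at least 837 counts in every library.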
